A study of Mus musculus with 12 samples.

Results

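Livers of Pml knockout mice were compared with livers of wild-type mice on the low-fat diet. The comparison took the 6 arrays whose titles name this diet, 3 of each genotype, out of 12 arrays in the series, and set the knockout values against the wild-type values for every probe set that is annotated to a single gene. The mice were male and ate a diet with 10% of calories from fat for 20 weeks, and both genotypes were fasted for 8 h before the liver was taken. Wild-type and knockout mice on a diet with 60% of calories from fat, kept and fasted in the same way, make up the other 6 arrays. Each group gave 3 liver extracts, taken from 8 mice per group. The labels call the mutants knockout only, and give neither the design of the allele nor the strain or age. The labels number the extracts 1 to 3 and do not say that each came from its own mouse, so p-values measure the spread between these extracts, part of which may be technical.

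Pml encodes the protein that builds PML nuclear bodies, small spheres in the nucleus that gather proteins marked with the small modifier SUMO and that act on the tumour suppressor p53. PPAR-alpha, encoded by Ppara, is the nuclear receptor of the fasted liver: with its partner RXR it turns on genes that take up fatty acids, oxidise them in mitochondria and peroxisomes, and make ketone bodies for other organs. The title of the series joins both themes, since it names PML, PPAR signalling and the oxidation of fatty acids in breast cancer. The arrays on the low-fat diet ask which of these genes differ in liver when Pml is missing and no fat load is given.

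All values below are log2 signals, on which a difference of 1 is a doubling, and a log2 change is the knockout mean minus the wild-type mean of the low-fat arrays. The 6 arrays were alike, with correlations between 0.990 and 0.994 over probe sets, and 0 pairs were identical. Markers of hepatocytes averaged 12.47 to 12.53 in all 6 extracts, which checks the tissue label. Knockout extract 2 stood apart on the first principal component of the 6 arrays, which held 29% of the variance, with a score of 23.9 against -8.31 to 1.10 in the other 5. Its 14 markers of macrophages and Kupffer cells, the resident macrophages of liver, averaged 4.84, against 5.91 to 6.60 in the other 5 extracts, and its 15 markers of liver endothelium averaged 6.17, against 6.68 to 7.09. Fewer cells of a type and less RNA per cell cannot be told apart in such bulk samples. RNA integrity was judged from actin, as the log2 signal at its 3' end less that at its 5' end: the values were 1.43, 1.26 and 1.85 in wild-type extracts 1 to 3 and 1.48, 1.54 and 1.55 in knockout extracts 1 to 3. Single extracts weighed heavily in groups of 3: when each of the 6 was left out in turn, the log2 change of 33 of the 82 named genes besides Pml moved by over 1.5 times at least once, and the median of 28 of the 41 gene lists changed sign at least once. The values without an extract are given below for some of these.

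Pml was the 1 gene that fell after correction. Its brighter probe set had log2 signals of 5.40, 4.92 and 5.07 in wild-type extracts and 3.70, 3.59 and 3.59 in knockout extracts. The knockout signals were in the dim range, since the dimmest gene tested had a mean of 4.08 over the 12 arrays. Every knockout value lay below every wild-type value. The log2 change was -1.51 with an SE of 0.188 and a limma adjusted p of 0.0303, and since such dim signals are compressed it may understate the difference. The dimmer probe set of Pml had 2.92, 2.73 and 3.03 in knockout extracts, each below the wild-type values of 3.42, 3.26 and 3.20. The labels do not say which part of the gene was removed, so these probe sets check the genotype labels without showing whether any transcript remained. The call was lost when any of 8 arrays was left out singly, with a limma adjusted p of up to 0.198, while the log2 change stayed between -1.61 and -1.37.

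Of 10258 genes tested, 1 gene, 0.00975%, passed the adjusted threshold of 0.05. An unadjusted limma p under 0.05 was reached by 427 genes with lower values in knockout liver (4.16%) and by 468 genes with higher values (4.56%), together 8.72% of the genes. All 3 knockout values lay below all 3 wild-type values for 505 genes (4.92%) and above them for 727 genes (7.09%). These shares are the background against which the counts for single pathways are to be read. The count of genes with lower values was 274 without knockout extract 2 and 788 without knockout extract 3, and the count with higher values was 306 without wild-type extract 3, against 427 and 468 with all arrays. Over all genes 48.5% had lower and 51.5% higher means in knockout liver, with a median log2 change of 0.0049, and 10 genes differed by more than 1 on the log2 scale, 7 of them lower and 3 higher in knockout liver.

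**Figure D1:**
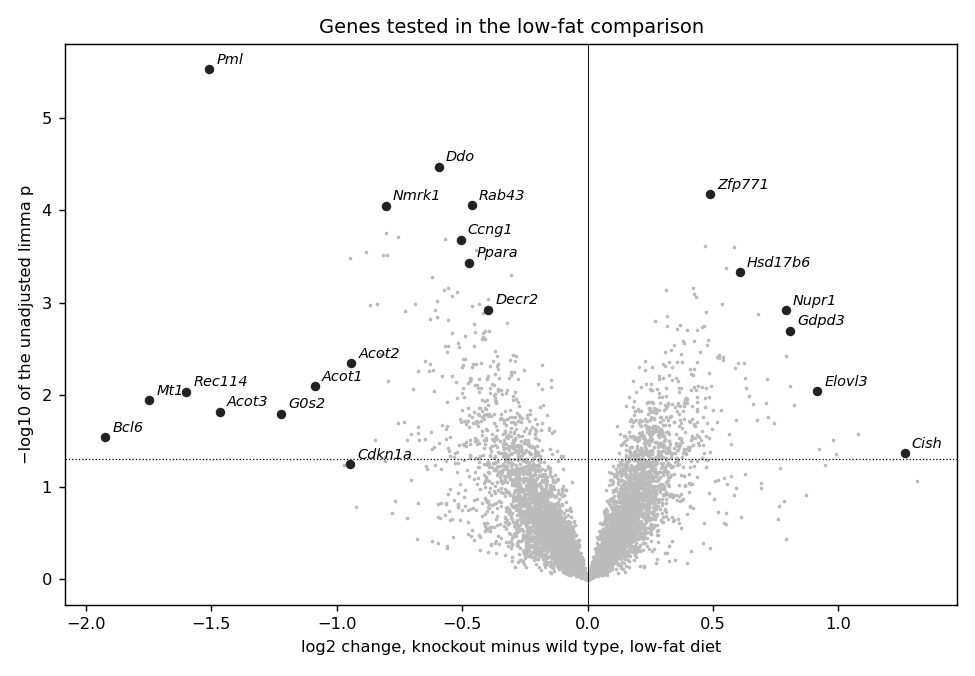
Each point is 1 of 10258 genes, with its log2 change (knockout minus wild type, low-fat diet) on the x axis and the negative log10 of its unadjusted limma p on the y axis; the dotted line marks the unadjusted threshold of 0.05. Pml lies highest, at a log2 change of -1.51, while genes with changes as large or larger, such as Bcl6 at -1.92 and Mt1 at -1.75, lie far lower on the plot.

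The genes with the next smallest p-values did not pass. Ddo encodes the peroxisomal enzyme that degrades D-aspartate. Its signal was 6.69, 6.83 and 6.76 in wild-type extracts and 6.17, 6.13 and 6.20 in knockout extracts, so the groups did not overlap (log2 change -0.59, SE 0.0942, limma adjusted p = 0.171). A second probe set of Ddo had a log2 change of -0.75. When the probe sets of each gene were averaged instead, Ddo passed, with a limma adjusted p of 0.0229. Pml was then left out as dim and was not tested. Nmrk1 encodes a nicotinamide riboside kinase, which salvages a vitamin precursor into NAD. It had 8.03, 7.94 and 8.38 in wild type against 7.61, 7.09 and 7.24 in knockout liver (log2 change -0.80, SE 0.142, limma adjusted p = 0.182), again without overlap. Without knockout extract 1, 4 genes passed: Pml, Nmrk1, Fgf1 and Nfkbiz. The last 2 were named after their values were seen. Fgf1, a fibroblast growth factor, had a log2 change of -0.80 and Nfkbiz, a nuclear regulator of inflammatory transcription, one of -0.84 with all arrays, and neither overlapped between genotypes.

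Rab43, a small GTPase of membrane trafficking, had 9.26, 9.36 and 9.46 in wild type against 8.79, 9.01 and 8.90 in knockout liver, a log2 change of -0.46. The zinc finger gene Zfp771 was the 1 of the 5 genes with the smallest p-values that was higher in knockout liver. Its signal was 7.94, 7.89 and 8.08 in wild type against 8.47, 8.41 and 8.50 in knockout liver (log2 change 0.49, SE 0.0836, limma adjusted p = 0.182). Its brightest probe sets are of a kind whose probes can match other transcripts, and its dimmest had a log2 change of -0.12. Hsd17b6, a steroid and retinoid dehydrogenase on the list of periportal hepatocyte markers, had 11.00, 11.16 and 11.33 in wild type against 11.74, 11.76 and 11.80 in knockout liver (log2 change 0.61, limma adjusted p = 0.253). Each knockout value was above each wild-type value. Hnf4a, the nuclear receptor that maintains hepatocyte identity, had a log2 change of 0.32, and its other 3 probe sets had changes of 0.24, 0.29 and 0.39.

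Among the 10 lowest log2 changes at an unadjusted p under 0.05, 3 were the thioesterase genes Acot1, Acot2 and Acot3, described below with the targets of PPAR-alpha. G0s2 encodes the inhibitor of the triglyceride lipase ATGL. It had 8.80, 10.52 and 9.91 in wild type against 8.32, 8.61 and 8.63 in knockout liver (log2 change -1.22, SE 0.439, limma adjusted p = 0.502). The knockout extracts were within a narrow band below all wild-type extracts, which themselves spread widely. Mt1, a metal-binding metallothionein that responds to stress hormones and inflammation, had 10.78, 9.14 and 11.73 in wild type against 9.44, 7.85 and 9.13 in knockout liver, and the groups overlapped (log2 change -1.75, SE 0.589, limma adjusted p = 0.487). Without wild-type extract 3 its log2 change was -1.16.

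Sspn, which encodes sarcospan of the dystrophin complex, had 4.97, 5.07 and 5.14 in wild type against 3.86, 4.07 and 4.41 in knockout liver (log2 change -0.95). Lrtm1, a leucine-rich repeat membrane protein, was close to the dim limit, at 4.38, 4.45 and 4.52 in wild type against 3.55, 3.58 and 3.56 in knockout liver (log2 change -0.88). Neither gene overlapped between genotypes. Rec114, a meiotic recombination gene, was dim as well, at 5.55, 5.78 and 4.88 against 4.13, 3.69 and 3.60 (log2 change -1.60). Mterf2, of the family of mitochondrial transcription factors, was outside the 10 by size and was named for its genotype-by-diet p; it had 5.32, 5.78 and 5.32 in wild type against 4.69, 4.65 and 4.82 in knockout liver (log2 change -0.76).

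The 10 highest log2 changes at an unadjusted p under 0.05 were led by Cish, at 1.26, which is described below with the growth hormone axis. Gdpd3, a lysophospholipase, had 9.09, 8.80 and 9.04 in wild type against 9.56, 9.97 and 9.82 in knockout liver (log2 change 0.81, SE 0.208, limma adjusted p = 0.337). Nupr1, a stress-induced nuclear protein, had 4.20, 4.57 and 3.87 in wild type against 5.05, 5.11 and 4.84 in knockout liver (log2 change 0.79). Both genes were higher in every knockout extract. Hhex, a homeobox gene of liver, had a log2 change of 0.82, and Wsb1, a SOCS-box protein, one of 0.99, and the groups overlapped for both. Without wild-type extract 2 the log2 change of Wsb1 was 0.54, without knockout extract 3 it was 0.62, and without knockout extract 2 it was 1.498.

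The other 4 of these 10 genes, besides Elovl3, shared a pattern across extracts. Cage1 and Tpbpb, known from testis and placenta, the vomeronasal receptor Vmn1r62 and the predicted gene Gm14548 had their lowest low-fat value in wild-type extract 1 and their 2 highest in knockout extracts 1 and 2. For Cage1 the values were 3.38, 4.97 and 5.29 in wild type against 6.01, 5.91 and 4.95 in knockout liver, so knockout extract 3 lay among the wild-type values. Without wild-type extract 1 the log2 change of Cage1 was 0.49, against 1.08 with it. The second probe set of Tpbpb, dim on all arrays, had a log2 change of -0.09.

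**Figure D2:**
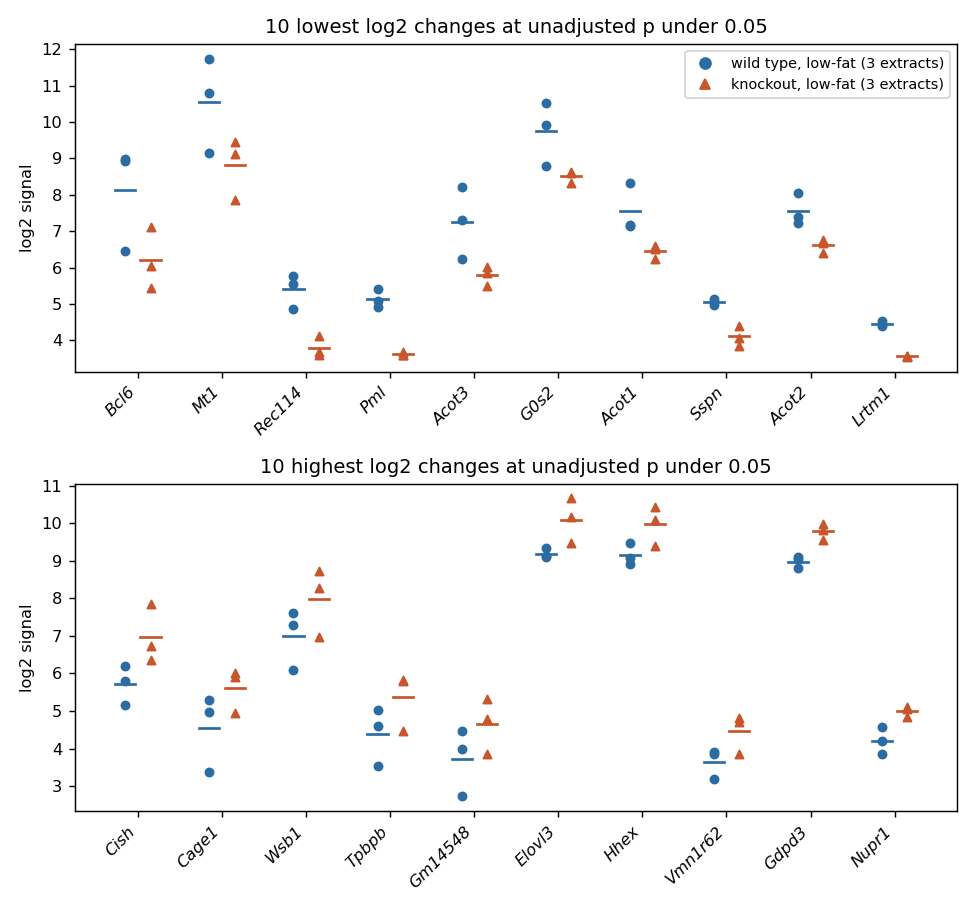
Log2 signals of single extracts on the low-fat diet for the 10 lowest and the 10 highest log2 changes at an unadjusted p under 0.05; circles are wild type, triangles knockout, and bars the means of 3 extracts. Pml, Sspn and Lrtm1 are separated, with the knockout values of Pml and Lrtm1 in the dim range, whereas Bcl6, Mt1, Cage1, Wsb1 and Gm14548 overlap between genotypes.

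Ppara had lower values on each of its probe sets. The brightest had 10.70, 10.75 and 10.87 in wild type against 10.10, 10.54 and 10.27 in knockout liver (log2 change -0.47, 1.39-fold lower, SE 0.0975, limma adjusted p = 0.222). The second had 9.88, 9.93 and 10.13 against 9.34, 9.61 and 9.66. The third had 9.81, 10.19 and 10.19 against 9.31, 9.09 and 9.40, a log2 change of -0.80. The genotypes did not overlap on any of the 3 probe sets, and none passed the correction. On the high-fat diet they overlapped on all 3, with a log2 change of -0.11 on the brightest.

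Of 13 tested receptors and coregulators of the PPAR family, 8 were lower and 5 higher in knockout liver, and 0 passed the limma correction. An unadjusted p under 0.05 was reached by 1 lower and 1 higher gene, against 4.16% and 4.56% of all genes. The receptor partner Rxra had 9.52, 9.51 and 9.50 in wild type against 9.74, 9.90 and 9.58 in knockout liver (log2 change 0.23), above wild type in each extract. Its 2 dimmer probe sets had log2 changes of 0.15 and -0.05. The coactivator Ncoa1 had a log2 change of 0.24, also without overlap, and the corepressor Nrip1 one of -0.24 with overlap, its other 3 probe sets ranging from -0.28 to 0.05.

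Targets of PPAR-alpha had mostly lower values. Of 34 listed genes 25 had a probe set of their own and 21 passed the filter on dim genes; 20 of these 21 had lower means in knockout liver, while 48.5% of all genes did. At an unadjusted p under 0.05, 4 of 21 were lower and 0 higher, against 4.16% and 4.56% of all genes, and 3 of 21 lay wholly below wild type, against 4.92%. The median log2 change was -0.24, and 0 of 21 passed the limma correction. The list was chosen with results of these arrays known, so its direction is no independent evidence. By role, the thioesterases had a median of -1.09 over 3 genes, secreted proteins -0.60 over 3, omega oxidation -0.42 over 2, lipid handling -0.24 over 6 and oxidation enzymes -0.18 over 7.

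The mean of the 21 targets, relative to their mean over all 12 arrays, was -0.40, -0.10 and 0.23 in wild-type extracts 1 to 3 and -0.65, -0.30 and -0.42 in knockout extracts 1 to 3. Wild-type extract 1 therefore lay between the knockout extracts, and wild-type extract 3 was highest of the 6. Without wild-type extract 3 the median log2 change was -0.12, with 2 genes lower at an unadjusted p under 0.05. Without wild-type extract 1 it was -0.35, with 8 such genes, and without knockout extract 1 it was -0.14, with 3. Without knockout extract 2, whose macrophage markers were low, it was -0.29, with 7.

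Acot1, Acot2 and Acot3 encode acyl-CoA thioesterases, which split fatty acyl-CoA into free fatty acid and coenzyme A in the cytosol, the mitochondria and the peroxisomes. The RefSeq gene table orders them along chromosome 12 as Acot2, Acot1, Gm40474, Acot4, Acot3, Acot5, Gm8385 and Acot6. Acot5 was left out as dim, with a log2 change of -0.004, and Acot4 and Acot6 are not described here. Because Acot1, Acot2 and Acot3 had lower values together, the 300 bases around the start of each are shown, 250 before and 50 after. They come from RefSeq (GRCm38.p6, plus strand): Acot1 at chr12:84009252-84009551, Acot2 at chr12:83987611-83987910 and the first of 2 overlapping windows of Acot3 at chr12:84051894-84052193. Capitals mark AGGTCA, the half-element bound by nuclear receptors, searched on both strands.
Acot1: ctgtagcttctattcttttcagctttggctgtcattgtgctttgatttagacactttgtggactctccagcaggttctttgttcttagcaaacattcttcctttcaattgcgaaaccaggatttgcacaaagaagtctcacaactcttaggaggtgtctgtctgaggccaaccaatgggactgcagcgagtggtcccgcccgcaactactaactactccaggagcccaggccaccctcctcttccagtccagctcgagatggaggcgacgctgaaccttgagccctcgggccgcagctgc
Acot2: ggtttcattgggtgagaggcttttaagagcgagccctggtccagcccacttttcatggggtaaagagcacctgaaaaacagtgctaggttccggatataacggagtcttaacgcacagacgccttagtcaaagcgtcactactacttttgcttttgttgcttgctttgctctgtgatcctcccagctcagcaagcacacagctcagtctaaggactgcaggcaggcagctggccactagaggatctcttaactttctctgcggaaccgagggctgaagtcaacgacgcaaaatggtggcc
Acot3: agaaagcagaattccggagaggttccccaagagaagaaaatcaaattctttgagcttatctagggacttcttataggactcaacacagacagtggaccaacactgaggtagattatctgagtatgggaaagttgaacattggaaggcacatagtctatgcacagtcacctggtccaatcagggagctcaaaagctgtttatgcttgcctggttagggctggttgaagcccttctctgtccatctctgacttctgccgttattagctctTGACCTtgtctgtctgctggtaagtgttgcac
The Acot3 window holds 1 match, read on the minus strand, whose first printed base is at position 19 counted from the annotated start, and the Acot1 and Acot2 windows hold 0. AGGTCA occurs in 16.3% of 32851 windows of the same length. The match is a description of letters and no binding was measured.

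Acot1 had 7.14, 7.16 and 8.33 in wild type against 6.52, 6.59 and 6.25 in knockout liver (log2 change -1.09, 2.13-fold lower, SE 0.346, limma adjusted p = 0.445). Acot2 had 7.22, 7.40 and 8.04 against 6.75, 6.68 and 6.40 (log2 change -0.94, SE 0.273, limma adjusted p = 0.407). Acot3 had 6.24, 7.30 and 8.22 against 5.85, 6.01 and 5.50 (log2 change -1.47, 2.76-fold lower, SE 0.522, limma adjusted p = 0.499). Each of the 3 was lower in every knockout extract, and wild-type extract 3 was the highest of the 6 for each. Without that extract the log2 changes were -0.70 for Acot1, -0.70 for Acot2 and -0.98 for Acot3. The probe sets of Acot2 and Acot3 are of a kind that can match several transcripts, so signals of these related genes may not be fully separate. A second Acot2 probe set, dim on all arrays, had a log2 change of -0.13.

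Other targets spread more widely. The values of Cyp4a10, a fatty acid omega-hydroxylase chosen after its values were seen, were 9.52, 9.58 and 11.37 in wild type against 8.01, 9.82 and 10.48 in knockout liver, and the groups overlapped (log2 change -0.72, SE 0.551). The log2 change of Cyp4a10 was -0.01 without knockout extract 1, -0.12 without wild-type extract 3 and -1.24 without knockout extract 3, so it rested on single extracts. Cpt1a, the outer mitochondrial carnitine palmitoyltransferase that admits fatty acids to oxidation, had 11.22, 11.54 and 11.64 against 11.22, 11.34 and 11.13 (log2 change -0.23). Slc25a20, the carnitine carrier of the inner membrane, had a log2 change of -0.22, Fitm2, which helps to form lipid droplets, one of -0.30, and the thiolase Acaa1b one of -0.18.

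**Figure D3:**
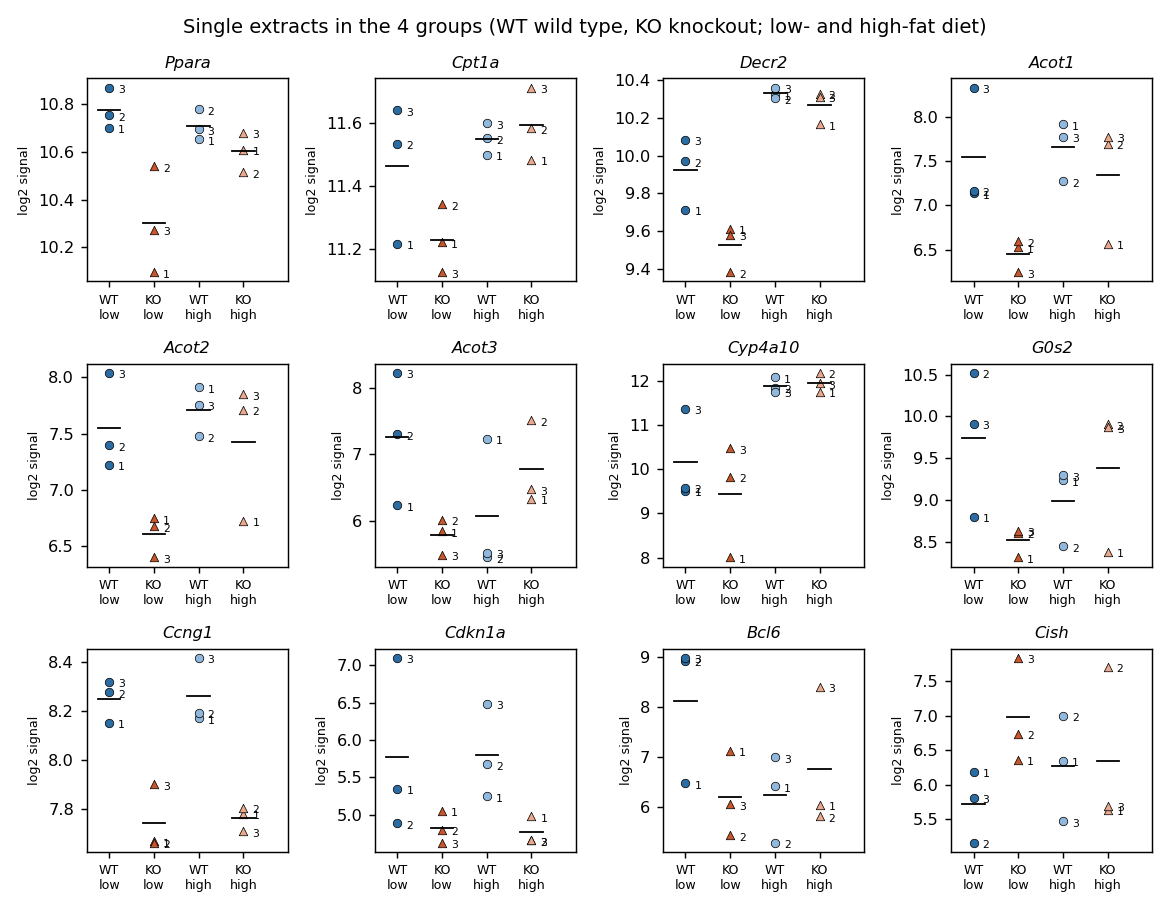
Log2 signals of single extracts (numbered 1 to 3 as in the labels) in the 4 groups for 12 genes; bars are means of 3. Acot1, Acot2, Acot3 and Ppara in low-fat knockout extracts lie below all low-fat wild-type extracts, and Ccng1 is lower in knockout extracts on both diets.

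In peroxisomes, 20 of 27 tested genes of fatty acid oxidation had lower means, and the median log2 change was -0.05. Of these 27, 3 were lower and 0 higher at an unadjusted p under 0.05, against 4.16% and 4.56% of all genes. None passed the limma correction. Decr2, a reductase needed for polyunsaturated fatty acids, had 9.72, 9.97 and 10.09 in wild type against 9.61, 9.38 and 9.58 in knockout liver (log2 change -0.40, SE 0.095, limma adjusted p = 0.298). All 3 knockout values were below wild type. Abcd3, a transporter that brings acyl-CoA into peroxisomes, had a log2 change of -0.15 with overlap. The median was 0.03 without wild-type extract 2, with 13 of 27 lower, so the sign of the median turned without that extract.

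Mitochondrial oxidation was divided by step. All 5 tested genes of the carnitine shuttle had lower means, with a median log2 change of -0.22, while the 6 acyl-CoA dehydrogenases had a median of -0.03 and the 4 genes of later steps one of 0.01. Acadvl, the dehydrogenase for very long chains, was higher in each knockout extract, at 11.12, 11.14 and 11.03 against 10.94, 11.01 and 10.88 (log2 change 0.15). Etfa, which carries electrons from these enzymes, also had 0.15. Over the 20 tested genes 1 was lower and 2 higher at an unadjusted p under 0.05, against 4.16% and 4.56% of all genes. None passed the limma correction, and 15 of the 20 had lower means, with a median of -0.04. That median was 0.01 without wild-type extract 2. Of the 6 tested ketone body genes, the carrier Slc16a7 had a log2 change of -0.52, with 8.12, 8.49 and 8.68 against 8.13, 7.58 and 8.02, and the groups overlapped. The 37 tested genes of oxidative phosphorylation had a median of 0.01, 16 of them lower.

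In p53 signalling, 23 of 26 tested targets had lower means in knockout liver, with a median log2 change of -0.13. At an unadjusted p under 0.05, 2 of 26 were lower and 0 higher, and 4 of 26 lay wholly below wild type, against 4.16%, 4.56% and 4.92% of all genes. None passed the limma correction. The 6 tested cell cycle targets had the lowest median, -0.53, followed by the feedback genes at -0.22 over 2, the repair genes at -0.10 over 5, the cell death genes at -0.09 over 10 and the metabolic genes at -0.06 over 3. The median stayed between -0.18 and -0.11 when each array was left out. Relative to their mean over all arrays, the targets averaged 0.03, 0.18 and 0.15 in wild-type extracts 1 to 3. In knockout extracts 1 to 3 they averaged -0.05, -0.18 and 0.02, so knockout extract 3 was close to wild-type extract 1. This list too was chosen with results of these arrays known, so its direction is no independent evidence.

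Ccng1, a cyclin induced by p53, had 8.15, 8.28 and 8.32 in wild type against 7.67, 7.66 and 7.90 in knockout liver (log2 change -0.51, 1.42-fold lower, SE 0.0979, limma adjusted p = 0.208). Its other 2 probe sets had log2 changes of -0.52 and -0.61. Zmat3, an RNA-binding target of p53, had 5.34, 5.53 and 5.31 against 5.11, 5.09 and 5.21 (log2 change -0.26), and neither gene overlapped on the probe set used. Cdkn1a, the cell cycle inhibitor p21, had 5.35, 4.89 and 7.10 in wild type against 5.06, 4.81 and 4.63 in knockout liver, and the groups overlapped (log2 change -0.95, SE 0.451, limma adjusted p = 0.588). Wild-type extract 3 alone was high: without it the log2 change was -0.29. Btg2, which slows proliferation, had a log2 change of -0.52, and -0.22 without knockout extract 2.

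Genes that act on p53 were placed the other way, with 8 of 10 higher, a median of 0.12 and 3 of 10 wholly above wild type, against 7.09% of all genes. Hipk2, a kinase found in PML bodies that phosphorylates p53, had 9.08, 8.79 and 9.05 in wild type against 9.29, 9.25 and 9.17 in knockout liver (log2 change 0.26, limma adjusted p = 0.498). Of its 8 probe sets 1, a dim one, had a lower mean, at -0.04, and the others had 0.19 to 0.59. Ppm1d, the phosphatase that switches p53 off, had a log2 change of 0.27 on its brighter probe set and -0.10 on the other. Akt1 had 0.17, and Atr, the kinase of the replication stress checkpoint, -0.22, with every knockout value below wild type, though 1 of its 3 probe sets had 0.12.

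Partners of Pml in the nuclear body showed no shared direction. Of 18 tested genes 8 were lower and 10 higher, with a median log2 change of 0.003. Besides Pml and Hipk2, Sumo3, a form of SUMO, had an unadjusted p under 0.05, at 10.03, 10.11 and 9.73 in wild type against 10.18, 10.04 and 10.29 in knockout liver (log2 change 0.21), with overlap.

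Lipid droplet genes had 11 of 16 lower and a median log2 change of -0.07. An unadjusted p under 0.05 was reached by 2 lower and 0 higher genes, against 4.16% and 4.56% of all genes. Besides G0s2, Ces1d, a carboxylesterase that hydrolyses stored triglyceride, had 10.79, 11.24 and 11.32 in wild type against 10.79, 10.50 and 10.25 in knockout liver (log2 change -0.60, SE 0.148, limma adjusted p = 0.313). The groups did not overlap, but wild-type extract 1, at 10.792, and knockout extract 1, at 10.790, were almost equal. Lpl, the lipase that takes up circulating fat, had a log2 change of 0.57 with overlap. The 24 tested lipogenic genes were split, 11 lower and 13 higher, with a median of 0.03. Elovl3, an elongase of very long chains, and Elovl5, which elongates polyunsaturated chains, had 0.92 and 0.24, while Thrsp, a lipogenic nuclear protein, had -0.31 and Acacb, the mitochondrial acetyl-CoA carboxylase, -0.56, beside 0.10 on its dim second probe set. The log2 change of Acacb was -0.25 without knockout extract 2 and -0.88 without knockout extract 1.

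For bile acids, 8 of 9 tested genes of synthesis had lower means, with a median log2 change of -0.08. Over the whole list 14 of 22 were lower, with a median of -0.05. Without knockout extract 2, 9 of 22 were lower and that median was 0.01. At an unadjusted limma p under 0.05, 0 were lower and 2 higher, against 4.16% and 4.56% of all genes. Of the 22, 0 lay wholly below and 4 wholly above wild type, against 4.92% and 7.09% of all genes. Abcb11, the pump that exports bile salts, had 11.08, 11.05 and 10.83 in wild type against 11.14, 11.36 and 11.39 in knockout liver (log2 change 0.31, limma adjusted p = 0.407). Fgfr4, the receptor through which the gut signals to bile acid synthesis, had 8.06, 8.25 and 8.06 against 8.59, 8.36 and 8.50 (log2 change 0.36). Both were higher in each knockout extract. The other 4 probe sets of Fgfr4 had changes from -0.15 to 0.24.

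In male mice, pulses of growth hormone act on the liver through the kinase Jak2 and the factor Stat5b, which drives Cish, a feedback inhibitor, and represses Bcl6, itself a repressor that holds down female-biased genes. Cish had 6.19, 5.16 and 5.81 in wild type against 6.36, 6.74 and 7.84 in knockout liver (log2 change 1.26, 2.40-fold higher, SE 0.560, limma adjusted p = 0.558). Every knockout value was higher, with knockout extract 1 close to wild-type extract 1. Bcl6 had 6.47, 8.92 and 8.97 in wild type against 7.12, 5.43 and 6.05 in knockout liver (log2 change -1.92, 3.79-fold lower, SE 0.778, limma adjusted p = 0.542). Here wild-type extract 1 was below knockout extract 1. A second probe set of Bcl6 had a log2 change of -1.52, also with overlap.

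Jak2 and Stat5b had log2 changes of 0.12 and -0.12. Over the 9 tested genes of the axis, 5 were lower and 4 higher. Wild-type extract 1 had the highest wild-type Cish and the lowest wild-type Bcl6. Among knockout extracts the lowest Bcl6, in extract 2, went with the middle value of Cish. The hour of the day and the phase of hormone pulses at collection are not given in the labels, and their part in these values was not tested.

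The windows at the starts of both genes are shown because both are known to be bound by Stat5, whose palindrome is TTCNNNGAA. They come from RefSeq (GRCm38.p6): Cish at chr9:107296409-107296708 on the plus strand, and for Bcl6 the upstream start at chr16:23988803-23989102 and the downstream start at chr16:23981234-23981533, both on the minus strand. Capitals mark each match to the palindrome, which reads the same on both strands.
Cish: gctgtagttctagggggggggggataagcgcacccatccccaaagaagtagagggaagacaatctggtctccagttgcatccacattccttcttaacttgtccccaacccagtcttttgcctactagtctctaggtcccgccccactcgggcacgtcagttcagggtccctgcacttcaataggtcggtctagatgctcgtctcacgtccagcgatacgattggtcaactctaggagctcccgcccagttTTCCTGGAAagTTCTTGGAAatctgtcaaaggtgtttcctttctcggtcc
Bcl6 upstream start: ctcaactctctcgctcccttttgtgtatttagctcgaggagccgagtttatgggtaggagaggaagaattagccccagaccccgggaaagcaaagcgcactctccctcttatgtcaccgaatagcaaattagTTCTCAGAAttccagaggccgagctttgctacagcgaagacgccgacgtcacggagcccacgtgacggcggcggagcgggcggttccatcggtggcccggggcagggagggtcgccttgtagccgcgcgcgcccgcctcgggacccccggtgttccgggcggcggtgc
Bcl6 downstream start: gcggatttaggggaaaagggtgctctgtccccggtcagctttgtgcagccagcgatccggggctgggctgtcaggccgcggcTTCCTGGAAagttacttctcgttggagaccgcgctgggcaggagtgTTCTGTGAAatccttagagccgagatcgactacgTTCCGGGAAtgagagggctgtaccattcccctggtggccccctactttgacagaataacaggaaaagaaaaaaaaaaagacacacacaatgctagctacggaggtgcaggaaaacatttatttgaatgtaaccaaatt
The Cish window holds 2 matches, whose first bases are at positions 1 and 12 counted from the annotated start. The upstream Bcl6 window holds 1 match, at position -118, and the downstream window holds 3, at positions -168, -122 and -88. The palindrome occurs in 8.30% of 32851 such windows, and 0.457% hold 2 or more. No binding was measured here.

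Of 32 listed female-biased liver genes 25 had a probe set of their own, and only 12 passed the filter on dim genes. Lower means were found in 11 of these 12, with a median log2 change of -0.33. This list was also chosen with results of these arrays known, so its direction is no independent evidence. At an unadjusted p under 0.05, 2 of 12 were lower and 0 higher, against 4.16% and 4.56% of all genes. None passed the limma correction, and 2 of 12 lay wholly below wild type, against 4.92% of all genes. The list shares Acot3 and Cyp4a10 with the PPAR-alpha targets. Fmo1, a flavin monooxygenase, had 10.93, 10.95 and 11.25 in wild type against 10.82, 10.64 and 10.79 in knockout liver (log2 change -0.29). The mean of the list relative to all arrays was 0.52 in wild-type extract 3 and -0.59 in knockout extract 2, against -0.16 to -0.07 in the other 4. Without wild-type extract 3 the median was -0.18, and without knockout extract 2 it was -0.23. Male-biased genes were split, 6 lower and 8 higher, with a median of 0.03. Elovl3, the male-biased elongase, had 9.33, 9.12 and 9.09 in wild type against 9.46, 10.16 and 10.66 in knockout liver (log2 change 0.92, SE 0.297, limma adjusted p = 0.450), each knockout extract above wild type.

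**Figure D4:**
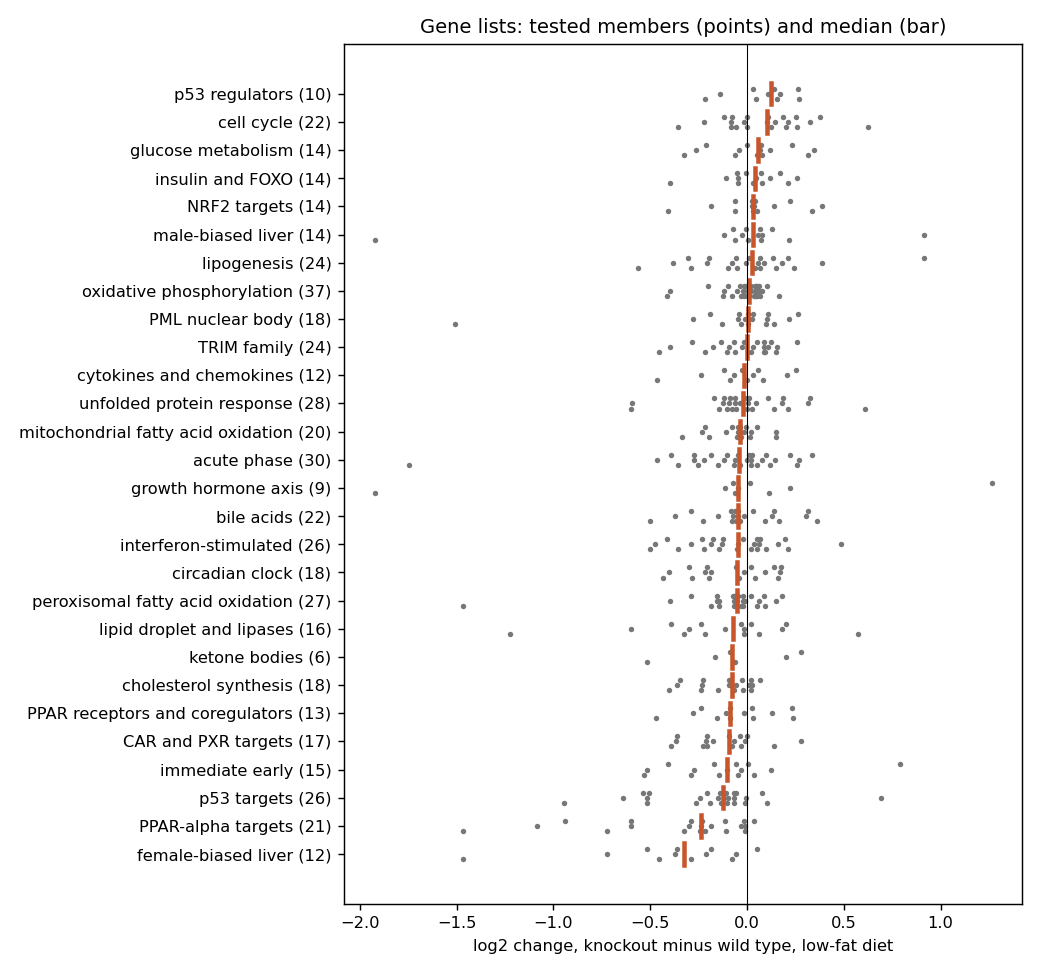
Log2 changes (knockout minus wild type, low-fat diet) of the tested members of 28 pathway lists, 1 point a gene, with the list's median as a bar and the number tested in brackets. The lowest medians are those of female-biased genes, -0.33, PPAR-alpha targets, -0.24, and p53 targets, -0.13, and the highest is that of the p53 regulators, 0.12, beside a median of 0.0049 over all genes.

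Targets of CAR and PXR, the receptors that induce drug metabolism, had 14 of 17 lower, with a median log2 change of -0.09. Of the 17, 3 were lower and 0 higher at an unadjusted p under 0.05, against 4.16% and 4.56% of all genes. Nr1i3, the gene of CAR, had 9.51, 9.81 and 10.01 in wild type against 9.58, 9.26 and 9.31 in knockout liver (log2 change -0.39), with overlap. The aldehyde dehydrogenases Aldh1a1 and Aldh1a7 had -0.21 and -0.23. Without knockout extract 2, or without wild-type extract 3, 0 of the 17 genes were lower at an unadjusted p under 0.05. In the clock, Cry1, a repressor, had a log2 change of -0.40 and Per2 one of -0.43, with all knockout values of Per2 below wild type, while 11 of 18 tested clock genes were lower and the median was -0.05. Of 28 genes of the unfolded protein response, 15 were lower. Atf4, its translationally induced factor, had 8.67, 8.87 and 8.88 against 9.01, 9.23 and 9.11 (log2 change 0.31), and its dim second probe set had -0.0007. Hamp, the iron hormone hepcidin on the acute phase list, had 0.27.

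The remaining pathways lay close to the genome-wide median. Cholesterol synthesis had 13 of 18 genes lower and a median log2 change of -0.08, but 5 of 18 lower and a median of 0.05 without knockout extract 2, and 7 of 18 lower and a median of 0.05 without wild-type extract 1. The median was 0.06 for glucose metabolism, 0.04 for insulin and FOXO, 0.03 for NRF2 targets, -0.04 for the acute phase, -0.01 for cytokines and chemokines and 0.002 for the TRIM family, to which Pml belongs. Ketone body genes had a median of -0.08, which became 0.035 without knockout extract 2, with 2 of 6 lower, and 0.01 without wild-type extract 2. The growth hormone axis had a median of -0.05, and 0.02 without knockout extract 3. Of the other medians in this paragraph, each also changed sign without at least 1 of the 6 extracts, so no direction is given for these lists. In all 41 lists Pml was the 1 member past the limma correction.

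Interferon-stimulated genes were mixed on the low-fat diet, 15 of 26 lower and 11 higher, with a median log2 change of -0.05. Ifit3, which restrains viral RNA, had 6.15, 6.24 and 6.16 in wild type against 5.79, 5.60 and 5.74 in knockout liver (log2 change -0.48, SE 0.167, limma adjusted p = 0.498). Gbp7 and Igtp, GTPases induced by interferon, had -0.50 and -0.42, and Ifi27l2a had 0.48, each knockout value above wild type. At an unadjusted p under 0.05, 3 genes were lower and 1 higher, against 4.16% and 4.56% of all genes. Without knockout extract 2 these counts became 1 and 1, with a median of 0.01.

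Markers of other cell types moved with single extracts. Of 13 tested markers of macrophages and Kupffer cells 11 were lower, with a median log2 change of -0.19, and without knockout extract 2 all 13 were higher, with a median of 0.36. All 14 tested markers of liver endothelium were lower, with a median of -0.15, and without knockout extract 2 only 3 were, with a median of 0.11. None of either list reached an unadjusted limma p under 0.05 with all arrays. In the separate high-fat extracts all 14 endothelium markers were also lower in knockout liver, with a median of -0.525. Of the 13 macrophage and Kupffer cell markers, 9 were lower and 4 higher there, with a median of -0.23. Hepatocyte, periportal and pericentral markers had medians of -0.01, -0.01 and -0.02, and markers of stellate cells and fibroblasts -0.07. Few markers of other cells were bright enough to be tested: 1 of cholangiocytes (0.07), 4 of T and NK cells (median 0.03), 3 of B cells (-0.23), 5 of neutrophils (0.09), 3 of erythroid cells (-0.02), 3 of exocrine pancreas (0.08) and 4 of adipocytes (0.15). The part of these cells in the results above was not tested. The immediate early genes, which respond to stress within minutes, had 11 of 15 lower and a median of -0.10, and 6 of 15 and 0.05 without knockout extract 2. The chemokine gene Ccl9 had 10.79, 10.43 and 10.63 in wild type against 9.98, 9.98 and 10.48 in knockout liver, a log2 change of -0.47.

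The high-fat arrays give the same contrast in other extracts, with no array shared between the diets. Of the 427 genes with lower values at an unadjusted p under 0.05 on the low-fat diet, 230 (53.9%) were also lower on the high-fat diet, 20 of them at an unadjusted p under 0.05; 48.5% of all genes were lower there. Of the 468 genes with higher values, 257 (54.9%) were higher on the high-fat diet, 21 of them at an unadjusted p under 0.05. Of all 10258 genes, 5282 were higher there. The p-values of both diets share 1 estimate of each gene's spread, so they are not independent. On the high-fat diet 457 genes (4.46%) had an unadjusted p under 0.05 in either direction, and 1 gene, Pml, passed. That share covers both directions, so it is no matching background for the counts of 20 and 21, which cover 1 direction each. The test of the difference between the diets passed for 0 of 10258 genes in limma, with 585 (5.70%) at an unadjusted p under 0.05, and for 1 gene when knockout low-fat extract 3 was left out.

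Pml had -1.51 and -1.80. Ccng1 had -0.51 on low fat, -0.50 on high fat, and the difference of -0.01 had an SE of 0.139. Cdkn1a had -0.95 and -1.03. The smallest p-values of the genotype-by-diet difference were those of Ifit3 and Srpk1. Ifit3 had -0.48 on low fat and 0.94 on high fat (difference -1.42, SE 0.236, limma adjusted p = 0.366). Srpk1, a kinase of splicing factors, had 0.43 and -0.51 (difference 0.94, SE 0.161, limma adjusted p = 0.366). Mterf2 had -0.76 and 0.30, Zfp771 0.49 and -0.12, and Slc35e3, a solute carrier, 0.21 and -0.42, with limma adjusted p-values of 0.576, 0.576 and 0.740.

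Of the 26 interferon-stimulated genes, 25 were higher in knockout liver on the high-fat diet, with a median of 0.49, and 11 had an unadjusted p under 0.05 for the difference between the diets, where 5.70% of all genes did. The PPAR-alpha targets had a median of -0.004 on the high-fat diet, and 1 of 21 had such a p. That gene was Acot3, at -1.47 and 0.71. G0s2 had -1.22 and 0.39, Bcl6 -1.92 and 0.52, Cish 1.26 and 0.08, and Ddo -0.59 and 0.02. Of these differences that of Ddo had the smallest unadjusted p, and none passed the correction.

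**Figure D5:**
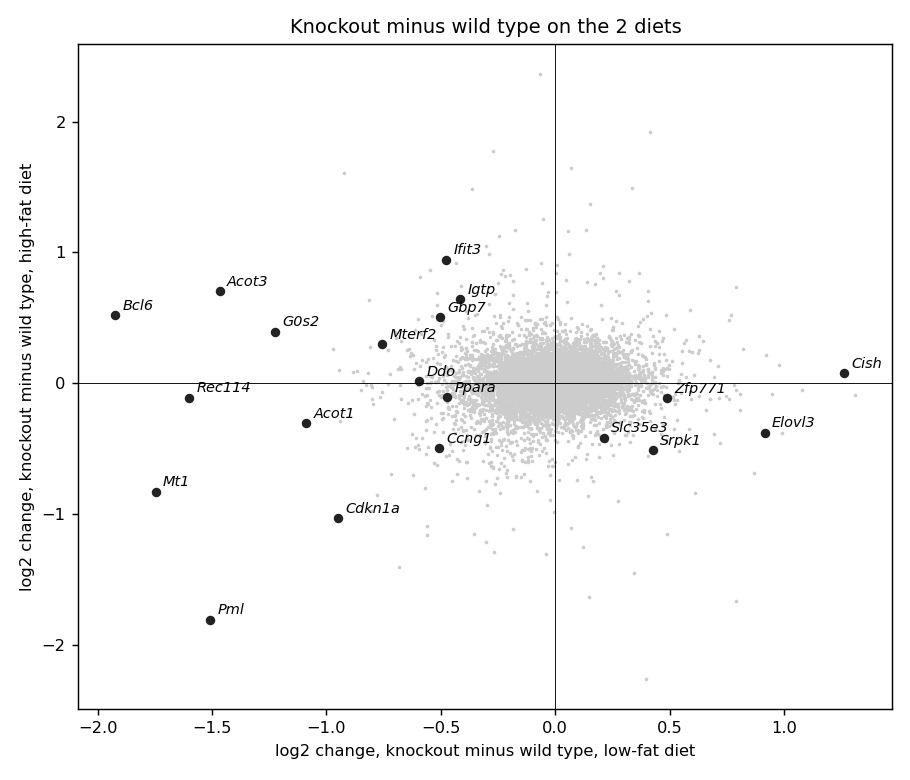
Log2 change, knockout minus wild type, on the low-fat diet (x axis) and on the high-fat diet (y axis) for 10258 genes, with 20 genes named. Pml, Ccng1, Cdkn1a and Mt1 lie in the lower left, lower on both diets, while Bcl6, Acot3, G0s2 and Ifit3 lie in the upper left.

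The leptin receptor gene Lepr was named after its values were seen, because probe sets not used for the gene had some of the smallest p-values of all. The gene yields a long signalling form of the receptor, short forms and a soluble form that binds leptin in blood. On one probe set Lepr had 5.02, 5.73 and 5.53 in wild type against 4.40, 4.12 and 4.24 in knockout liver (log2 change -1.18, SE 0.168, limma adjusted p = 0.111 over 45037 probe sets). On another it had 4.14, 5.02 and 4.94 against 3.63, 3.39 and 3.75 (log2 change -1.11, limma adjusted p = 0.217). Neither overlapped between genotypes. The probe set that stands for the gene, the brightest, had a log2 change of -0.32 with overlap, and another dim one had -0.06. On the high-fat diet the first of these had 3.54, 3.38 and 3.17 in wild type against 3.27, 3.00 and 3.28 in knockout liver, below every low-fat extract.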

How the data were processed

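Liver RNA of 12 extracts, 3 for each genotype and diet, was extracted with Trizol, labelled with biotin and hybridised to Affymetrix arrays with perfect-match probes, per the labels. The authors summarised 45141 probe sets with RMA and deposited log2 values, per the submitters' processing notes, with no software version given in the sources here. RMA in common use forces arrays to one distribution and compresses dim signals.

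Control probe sets (104) were left out. A single gene was annotated for 28898 probe sets, several for 551 and none for 15588; identifiers matched for 28689, with 0 symbols changed. The brightest probe set stood for a gene. The dimmest 40% of 17097 genes (6839) were left out, which left 10258. Differences were fitted with limma 3.58.1 in R 4.3.3 as group means over the 12 arrays, leaving 8 residual degrees of freedom, with a trended variance, and p-values were adjusted by Benjamini-Hochberg over all genes tested; probe-set p-values were adjusted over 45037 probe sets. The fit was checked on simulated data. The smallest exact two-sided permutation p for 3 against 3 is 0.1, so none was computed. The number of arrays limits the precision.

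Members and 41 gene lists (28 of pathways, 13 of cell type markers) were chosen with earlier results of these data known. Named genes were Pml, Ppara, Cdkn1a and Acot3; the 5 smallest p; the 10 highest and 10 lowest log2 changes at an unadjusted p under 0.05; up to 4 members of each list by smallest p; and the 5 smallest genotype-by-diet p. Replicate numbers entered as a block only in an alternative, since no label ties same-numbered extracts to each other. Promoter windows came from RefSeq tables for 5 of 5 genes looked up. Alternatives were quantile normalization, array medians subtracted, no filter or a 60% filter, other probe set rules, low-fat arrays alone, robust variance, no trend, array weights, a replicate block and leaving out each array.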

Additional observations from a re-analysis of the deposited data

How the results depend on the processing

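Pml kept its direction under all alternatives in which it was tested. Its call and the count of 1 gene past the adjusted threshold were lost, with a count of 0, with array weights (Pml log2 change -1.568, limma adjusted p = 0.0904) and with the replicate block (-1.507, 0.0668), and the count was 0 with the dimmest 60% left out, where Pml itself was below the filter. With the probe sets of each gene averaged, Pml was below the filter too, and the 1 gene past the threshold was Ddo. Leaving out single arrays gave 0 to 4 genes and -1.613 to -1.372 for Pml. Whether extracts of one number belong together is not given in the labels. The deviations of same-numbered extracts correlated at -0.08 to 0.26 for number 1, -0.05 to 0.33 for number 2 and -0.11 to 0.13 for number 3. Over all groups, 9 of 12 arrays correlated best with their own number, a hint of pairing from the data, not the design. Each array was matched against all arrays of the other groups, so some such matches arise by chance, and their share was not computed. Between low-fat wild-type and knockout extracts of the same number the correlations were -0.06, -0.05 and -0.11. No such hint was thus seen within the low-fat comparison.

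Genes lower at an unadjusted p under 0.05 numbered 737 with each probe set tested by itself and 274 to 788 with single arrays left out. Genes higher numbered 816 with no filter, 308 with the low-fat arrays alone and 306 to 561 with single arrays left out. Groups did not overlap for 2019 genes with no filter, 1976 probe sets tested singly and 1226 to 2824 genes with single arrays left out. Knockout lay above for 1297 with no filter and 724 to 1555, and below for 330 with the 60% filter, 893 probe sets and 502 to 1592; fewer arrays separate more often by construction. The other causes were not tested. Genes past the threshold for the genotype-by-diet difference numbered 0 to 1 with single arrays left out.

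The medians of the PPAR-alpha and p53 lists kept their direction throughout. Of 1861 values for 82 other named genes over 23 alternatives, 1857 kept direction and side of the threshold, 4 newly passed and 0 reversed. None of the 82 passed with the main settings, so keeping the side of the threshold meant staying uncalled. Most were named for small p-values or large changes in these same arrays. Several alternatives leave the low-fat means of a gene unchanged, so reversals could hardly occur and the tally is no measure of robustness. Quantile normalization moved the median of all genes from 0.00494 to 0.019 and median subtraction to -0.00934, with 44.4% and 52.7% of genes lower against 48.5%. Dim signals limit Pml, Lrtm1 and Rec114 in knockout liver.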

Other observations

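Cell cycle genes, which play little part in resting liver, had higher means in 14 of 22 tested, with a median log2 change of 0.10. At an unadjusted p under 0.05, 3 were higher and 1 lower, against 4.56% and 4.16% of all genes, and 0 passed the limma correction. Ccne1, the cyclin of the entry into DNA replication, had 0.63, the mitotic kinase Cdk1 0.33 and the replication helicase genes Mcm7 and Mcm4 0.38 and -0.36. Ccne1 and Cdk1 lay above wild type in every knockout extract and Mcm4 below. The median was 0.03 without wild-type extract 3. In oxidative phosphorylation, 3 of the 4 tested regulatory factors were lower and 1 higher, with a median of -0.24. The medians of the 5 complexes lay between -0.04 and 0.04. On the probe sets used, the nuclear respiratory factors Nrf1 and Gabpa had log2 changes of -0.41 and -0.40. The other 3 probe sets of Nrf1 had -0.10, -0.08 and 0.24, so its fall rested on 1 probe set.

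Probe sets without a single annotated gene were not part of the comparison. Of 16139 such probe sets, 1170 (7.25%) had an unadjusted p under 0.05 and 0 passed after correction over all probe sets (smallest limma adjusted p = 0.170).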
